A study of Mus musculus with 8 samples.

Results

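Nuclear receptors other than the gonadal steroid receptors were described in 4 nuclei of the mouse hypothalamus, the arcuate nucleus (Arc), the ventromedial hypothalamus (VMH), the dorsomedial hypothalamus (DMH), and the lateral hypothalamus (LH). The members were 42 named receptor genes, and *Nr5a1* and *Nr4a2* were not among them. The series names 20284 genes in all by their RefSeq accessions. Every probe that the array files pair with a RefSeq accession of one of these genes was taken, which gave 58 of the 55681 probes on the array and at least 1 probe for each of the 42 genes. Of these, 45 probes of 32 genes entered the tests, among 28894 probes of all kinds, since the scanner software called them well above background on the 2 arrays of 1 nucleus or more.

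Nuclear receptors are transcription factors whose activity is set by small lipid-soluble molecules such as hormones, vitamins, and sterols, or that act without a known ligand. Many pair with a retinoid X receptor (RXR) and bind copies of the half-site AGGTCA, and coactivators or corepressors then raise or lower transcription. In the hypothalamus they are known for sensing thyroid hormone, glucocorticoids, retinoids, and fatty acids, and some shape the nuclei during development.

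RNA came from C57BL/6J female mice at 3 months of age, with no genetic change, drug, or diet that set the nuclei apart. Each nucleus was cut out by laser microdissection from 2 mice, amplified, and hybridized to 1-color Agilent arrays, with 2 arrays per nucleus and 8 in all. The labels do not say which arrays share a mouse, so a p-value here measures the spread between these arrays. A signal below is the deposited processed intensity after each array was divided by its 75th percentile (the scaled signal), a fold is a ratio of such signals of 1 probe, and levels of different probes were not compared.

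Between 47.1% and 52.7% of the spots of an array were well above background, and no spot was saturated. The lowest scaled signal well above background was between 79.3 and 132 on the 8 arrays. The defining neuropeptides and factors were found where the labels place them for the Arc (*Agrp*, *Npy*, *Kiss1*, *Pomc*, and *Ghrh*), the VMH (*Nr5a1* and *Fezf1*), and the DMH (*Npvf*, *Prdm13*, and *Grp*), with both arrays of the named nucleus above all others. For the LH, *Hcrt* was highest in the LH (scaled signals of 105971 and 116750) but was also high in the DMH (55940 and 51283), and *Pmch* was 17650 and 17005 in the LH and 16253 and 11631 in the DMH. The LH arrays were the least alike of any nucleus, with a Pearson correlation across probes of 0.938 between them, and LH2 correlated more closely with DMH2 (0.954). Oligodendrocyte markers stood apart in the LH, where all 10 were higher on both arrays than on any other, and their summed scaled signal was 95438 and 103727 against 11899 to 33002 elsewhere. In tissue samples of this kind, fewer cells of a type and less RNA per cell cannot be told apart.

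Of the 45 receptor probes tested, 14 probes of 11 genes differed among the 4 nuclei (limma F-test, Benjamini-Hochberg adjusted p under 0.05), and 8.34% of all probes did. The receptors were chosen with earlier results of these data known, so this count is a description only. The genes that differed were *Nr5a2*, *Nr2f2*, *Nr0b1*, *Esrra*, *Nr2f1*, *Thrb*, *Rxrg*, *Nr3c1*, *Esrrb*, *Nr2e1*, and *Ppara*, where *Nr5a2*, *Nr2f1*, and *Thrb* passed with both of their probes. Leaving out 1 array in turn gave 8 to 15 probes, with 8 without Arc2 and 9 without VMH1 or VMH2. The patterns were of 4 kinds: an Arc receptor (*Nr5a2*), receptors low in the Arc (*Nr2f1* and *Nr2f2*), receptors higher in the Arc and VMH than in the LH (*Thrb*, *Rxrg*, and one probe of *Nr3c1*), and receptors highest in the LH (*Esrra* and *Esrrb*). *Nr0b1* was highest in the VMH, *Nr2e1* was highest in the DMH, and *Ppara* differed between the Arc and the LH.

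**Figure D1:**
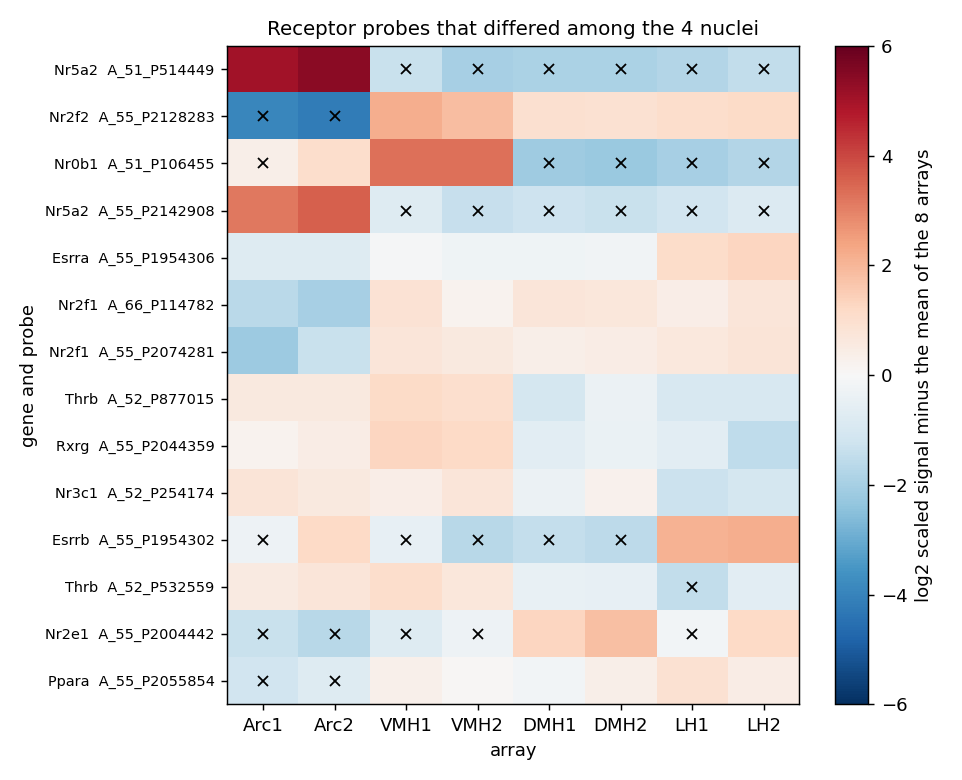
The 14 receptor probes that differed among the nuclei, 1 per line in order of F-test p, on the 8 arrays. Color is the log2 scaled signal minus the mean of the 8 arrays for that probe, and a cross marks an array on which the probe was not well above background. The Arc columns stand out for *Nr5a2*, *Nr2f2*, and *Nr2f1*, the VMH columns for *Nr0b1*, and the LH columns for *Esrra* and *Esrrb*.

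*Nr5a2*, *Nr2f1*, *Nr2f2*, and *Nr0b1* set the Arc or the VMH apart from each of the other 3 nuclei, and the windows of 250 bases before their RefSeq start sites are shown with those of *Thrb* and *Rxrg*, whose signals were arranged alike across the nuclei. The windows are from GRCm38.p6 and are written 5′ to 3′ on the strand of the gene, with copies of AGGTCA in capitals.
*Nr5a2* (chr1:136960449-136960698, minus strand): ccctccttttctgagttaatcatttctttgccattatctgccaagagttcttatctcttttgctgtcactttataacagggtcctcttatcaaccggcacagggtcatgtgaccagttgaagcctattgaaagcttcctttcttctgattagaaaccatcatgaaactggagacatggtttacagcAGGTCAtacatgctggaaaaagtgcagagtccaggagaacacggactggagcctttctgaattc
*Nr0b1* (chrX:86191525-86191774, plus strand): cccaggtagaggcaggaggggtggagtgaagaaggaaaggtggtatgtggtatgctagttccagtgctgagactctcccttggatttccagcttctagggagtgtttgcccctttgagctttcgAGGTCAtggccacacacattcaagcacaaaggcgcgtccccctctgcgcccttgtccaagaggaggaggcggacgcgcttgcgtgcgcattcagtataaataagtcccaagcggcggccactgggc
*Nr2f1* (chr13:78198874-78199123, minus strand): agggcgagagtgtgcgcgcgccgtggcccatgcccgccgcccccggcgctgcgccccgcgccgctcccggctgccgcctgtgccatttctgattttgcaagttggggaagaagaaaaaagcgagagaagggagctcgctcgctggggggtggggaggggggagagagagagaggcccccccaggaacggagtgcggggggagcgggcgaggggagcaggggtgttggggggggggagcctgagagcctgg
*Nr2f2* (chr7:70366747-70366996, minus strand): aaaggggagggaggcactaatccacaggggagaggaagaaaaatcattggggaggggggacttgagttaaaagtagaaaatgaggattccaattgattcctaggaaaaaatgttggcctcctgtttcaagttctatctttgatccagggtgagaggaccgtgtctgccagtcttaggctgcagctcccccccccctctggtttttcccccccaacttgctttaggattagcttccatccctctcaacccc
*Thrb* (chr14:17660710-17660959, plus strand): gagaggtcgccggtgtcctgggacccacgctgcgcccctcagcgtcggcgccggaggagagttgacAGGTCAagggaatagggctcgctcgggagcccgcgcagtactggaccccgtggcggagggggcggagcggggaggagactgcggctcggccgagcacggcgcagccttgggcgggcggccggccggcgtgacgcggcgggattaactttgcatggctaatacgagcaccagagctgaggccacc
*Rxrg* (chr1:167618015-167618264, plus strand): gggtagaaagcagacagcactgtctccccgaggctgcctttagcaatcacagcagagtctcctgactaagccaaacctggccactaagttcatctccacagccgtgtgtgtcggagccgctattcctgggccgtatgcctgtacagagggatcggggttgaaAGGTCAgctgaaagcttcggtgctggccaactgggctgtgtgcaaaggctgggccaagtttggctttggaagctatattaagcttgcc
The half-site AGGTCA was searched on both strands and was present in the windows of *Nr5a2*, *Nr0b1*, *Thrb*, and *Rxrg* shown here, at 64, 126, 184, and 88 bases before the start. The windows of *Nr2f1* and *Nr2f2* held no such letters, and neither did the windows at the second start sites of *Nr5a2*, *Rxrg*, *Thrb*, and *Nr2f1*. The half-site was in 11 of the 59 receptor windows, from 10 of the 39 receptor genes with a window, and in 14% of all 32851 windows. The longer form CAAGGTCA, a known binding sequence of the Nr5a receptors that contains the half-site, was in 0 of the 59 receptor windows and in 1.33% of all windows. These matches describe the letters only.

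Among the orphan receptors of the NR5 and NR0 groups, *Nr5a2* was an Arc gene. *Nr5a2* (liver receptor homolog 1) binds DNA as a monomer and is known for bile acid and steroid synthesis. With the probe A_51_P514449, its scaled signal was 2548 and 3248 on the Arc arrays and between 19.2 and 30.5 on the other 6, on none of which it was well above background. The 2 Arc arrays were thus far above all others. Its Arc signal was at least 27.7-fold that of the VMH, 30.5-fold that of the DMH, and 28.1-fold that of the LH, each computed against the lowest measured signal of the arrays compared (limma, adjusted p = 0.000256, 0.000286, and 0.000261). The probe A_55_P2142908 gave 433 and 579.7 in the Arc and 18.3 to 28.1 elsewhere. For that probe the bounds were 4.82-fold, 5.31-fold, and 4.90-fold (limma, adjusted p = 0.000705, 0.000984, and 0.000932). Both probes passed the 10-fold ratio of the study's methods, which 0.228% of all probes did, and 1 did after dim signals were raised to the lowest measured one. Both *Nr5a2* probes entered the tests through the Arc, where alone both arrays measured them. Their calls were kept with no filter on dim probes.

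*Nr0b1* (DAX1), a receptor without a DNA-binding domain of the usual kind that represses the Nr5a receptors, was a VMH gene. Its scaled signal was 958 on both VMH arrays, 123 and 198 on the Arc arrays, 22.0 and 20.5 on the DMH arrays, and 24.3 and 28.6 on the LH arrays. Of the arrays outside the VMH, only Arc2 was well above background. The probe thus entered the tests through the VMH, where alone both arrays measured it. Its VMH calls were kept with no filter on dim probes. The VMH signal was 6.15-fold that of the Arc (log2 difference of Arc minus VMH, -2.62 ± 0.27 (SE), limma adjusted p = 0.00343). It was at least 10.1-fold that of the DMH and 9.36-fold that of the LH (limma, adjusted p = 0.000462 and 0.000386). The Arc in turn was at least 1.65-fold above the DMH and 1.52-fold above the LH (limma, adjusted p = 0.00558 and 0.00304), and these 2 calls were lost when dim signals were raised to the lowest measured one, where the adjusted p was 0.449 and 0.265.

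The remaining members of these groups moved less or were dim. *Nr0b2* (SHP), which like *Nr0b1* lacks a DNA-binding domain, ranged from 799 to 1243 in the Arc and VMH and from 505 to 893 in the DMH and LH, where the VMH arrays overlapped those of every other nucleus, and its F-test adjusted p was 0.349 (limma). The largest of its differences, Arc minus LH, was 0.82 on the log2 scale with a 95% interval of 0.10 to 1.54. *Nr4a1*, an immediate early gene, had scaled signals of 966 and 921 in the VMH, 2199 and 1910 in the Arc, 2787 and 2306 in the LH, and 4519 and 2131 in the DMH. Both VMH arrays were the lowest, but the F-test did not pass (limma, adjusted p = 0.0738). *Nr4a3* was well above background on DMH1 only, at 129, and *Nr6a1* on no array.

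**Figure D2:**
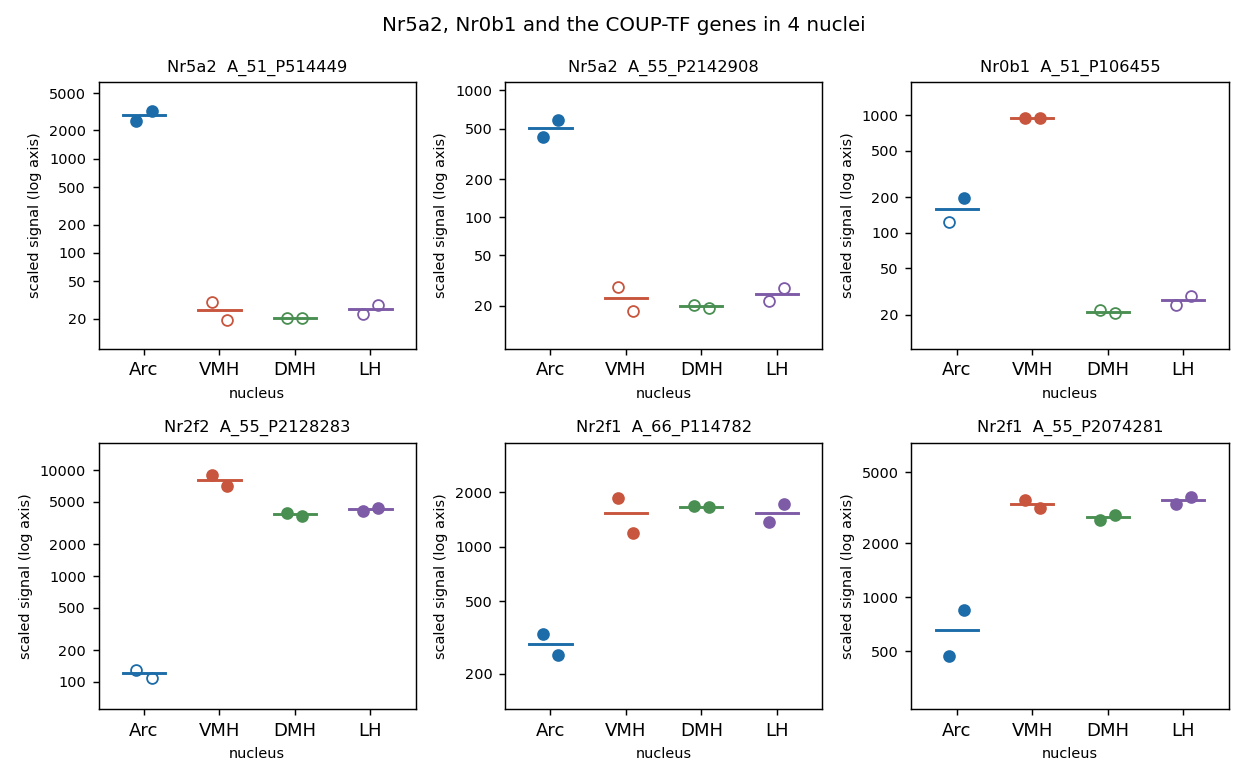
Scaled signal (log axis) of *Nr5a2*, *Nr0b1*, *Nr2f2*, and *Nr2f1* in the 4 nuclei, 1 panel per probe. Points are arrays, open where the probe was not well above background, and lines are means of 2 arrays. Both *Nr5a2* probes sit high in the Arc, *Nr0b1* at 958 in the VMH, and *Nr2f2* at 110 to 131 in the Arc against 3706 to 9000 elsewhere.

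In the NR2 group, *Nr2f1* and *Nr2f2* were lower in the Arc than in any of the other nuclei. They encode the COUP transcription factors COUP-TFI and COUP-TFII. In background knowledge these orphan receptors set regional identity in the developing brain. *Nr2f2* (A_55_P2128283) was not well above background in the Arc, with scaled signals of 131 and 109.9. It reached 9000 and 7114 in the VMH, 3927 and 3706 in the DMH, and 4074 and 4426 in the LH. The Arc arrays lay far below all others, by at least 62.1-fold against the VMH, 29.6-fold against the DMH, and 32.9-fold against the LH (limma, adjusted p = 0.000167, 0.000286, and 0.000261). The VMH arrays were in turn above those of the DMH and LH without overlap, with log2 differences of 1.07 (95% interval 0.56 to 1.58) and 0.91 (0.41 to 1.42) that did not pass the adjusted threshold.

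*Nr2f1* was lower in the Arc with both probes. With the probe A_66_P114782, the scaled signals were 332 and 255 in the Arc, 1859 and 1194 in the VMH, 1673 and 1655 in the DMH, and 1361 and 1710 in the LH. The other nuclei exceeded the Arc by 5.12-fold, 5.72-fold, and 5.25-fold (limma, adjusted p = 0.0059, 0.0104, and 0.0044 for the VMH, DMH, and LH). With the probe A_55_P2074281, the Arc arrays were at 472 and 848 and the other 6 between 2716 and 3640. Here the folds were 5.24, 4.42, and 5.49 (limma, adjusted p = 0.00645, 0.021, and 0.00461). Neither probe separated the VMH, DMH, and LH from each other, where log2 differences were between -0.32 and 0.25.

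The calls against the DMH were the least stable of these. For A_66_P114782 the Arc minus DMH call was lost without any of the Arc or DMH arrays (adjusted p between 0.0577 and 0.0836), and its Arc minus VMH call without Arc2 (0.0542). For A_55_P2074281 the Arc minus DMH call was lost without Arc1, VMH1, VMH2, DMH1, or DMH2 (0.0611 to 0.123), and its Arc minus VMH call without VMH1 (0.0575). All calls of *Nr2f2*, *Nr5a2*, and *Nr0b1* were kept when any 1 array was left out.

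*Nr2e1* (Tailless), a receptor of neural stem and glial cells, was measured in the DMH and on 1 LH array. Its scaled signal was 243 and 348 in the DMH, 88.9 and 228 in the LH, 58.4 and 80.5 in the VMH, and 39.1 and 32.1 in the Arc. The DMH arrays were above all others, although LH2 came close to DMH1, and LH1 and the VMH and Arc arrays were not well above background. The probe entered the tests through the DMH, where alone both arrays measured it. The DMH was at least 2.57-fold above the Arc (limma, adjusted p = 0.0296), and the LH at least 1.26-fold above it (adjusted p = 0.0387). The first call was lost without any of the Arc, VMH, or DMH arrays (0.0731 to 0.176) and the second without any array but LH1 (0.0547 to 0.167). Both calls were also lost when dim signals were raised to the lowest measured one, where the adjusted p was 0.242 and 0.672 and that of the F-test 0.152 (limma).

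The other NR2 members did not pass the F-test or were not measured. *Nr2c2*, a testicular orphan receptor (TR4), had scaled signals of 2168 and 2350 in the Arc, 2701 and 2906 in the VMH, 2727 and 2276 in the DMH, and 1816 and 2041 in the LH for the probe A_55_P1981731, where the LH arrays were the lowest and the DMH arrays overlapped those of the Arc and VMH. With the probe A_55_P1970841 the signals were 629 and 792 in the Arc and 1040 and 1209 in the VMH. They were 744 and 1022.5 in the DMH and 572 and 902 in the LH, where the arrays spanned those of the Arc. The low LH was thus seen only with the first probe. *Nr2c1* (TR2) ranged from 140.4 to 390.0 over the 8 arrays for the probe A_52_P589550, and the 2 arrays of a nucleus differed as much as the nuclei. *Nr2f6*, the remaining COUP-TF relative, gave log2 differences between -0.63 and 0.13 (limma, F-test adjusted p = 0.248). *Hnf4a*, *Hnf4g*, and *Nr2e3*, known from liver, gut, and retina, were well above background on no array.

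Markers of other cells were compared between the Arc and the rest beside these results. The 7 ependymal and tanycyte markers summed to 6803 and 6794 in the Arc and to 2819 to 3698 elsewhere, with 3 of 7 (*Rax*, *Col23a1*, and *Vim*) higher on both Arc arrays than on any other. *Foxj1* and *Tmem212*, which mark ciliated ependymal cells, were well above background on no array. The 10 neuronal markers with a value on every array summed to 161669 and 170579 in the Arc and to 173577 to 217523 elsewhere, and 5 of all 11 were lower on both Arc arrays than on any other. The 8 astrocyte markers summed to 79523 and 84644 in the Arc and to 90683 to 138487 elsewhere, with 4 of 8 lower on both Arc arrays and 1 higher. Oligodendrocyte markers were lower on both Arc arrays than on any other for 9 of 10 genes. The share of all probes placed so is not given, and these counts are a description only. The part of the markers in the Arc results was not tested.

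For the thyroid hormone and retinoid receptors, 3 of 13 probes tested passed the F-test (23.1%, against 8.34% of all probes), from *Thrb* and *Rxrg*, and their highest arrays were in the VMH. Over the 13 probes the median log2 difference was 1.12 for Arc minus LH and -0.24 for Arc minus VMH, against 0.05 and 0.01 over all probes tested. The summed oligodendrocyte markers were 4.26-fold higher in the LH than the mean of the other arrays, while *Thrb* and *Rxrg* were lower in the LH than in the Arc and VMH. The part of the markers in these differences was not tested. *Thrb*, the beta receptor for thyroid hormone, is known in the hypothalamus for feedback on thyroid hormone release. With the probe A_52_P877015, its scaled signal was 858 and 845 in the Arc, 1271 and 1127 in the VMH, 270.3 and 436 in the DMH, and 291 and 293 in the LH. The Arc and VMH arrays were all above those of the DMH and LH. The VMH was 3.49-fold above the DMH and 4.09-fold above the LH (limma, adjusted p = 0.0203 and 0.00907), and the Arc 2.91-fold above the LH (0.0155). With the probe A_52_P532559 the signals were 487 and 549 in the Arc, 697 and 538 in the VMH, 243 and 237 in the DMH, and 118 and 213 in the LH, where LH1 was not well above background. The order of the nuclei was the same and again without overlap between these pairs of nuclei, and the VMH was 3.86-fold and the Arc 3.26-fold above the LH (limma, adjusted p = 0.0183 and 0.0198). For both probes, the Arc minus LH calls were lost without either Arc array (0.0861 to 0.11) and the VMH minus LH calls without either VMH array (0.0519 to 0.126). The VMH minus DMH call of A_52_P877015 was lost without any of the Arc or VMH arrays or DMH1 (0.0608 to 0.141).

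*Rxrg*, an RXR partner gene, was arranged like *Thrb* across the nuclei. With the probe A_55_P2044359, its scaled signal was 2655 and 3124 in the Arc, 5516 and 5176 in the VMH, 1479 and 1717 in the DMH, and 1475 and 799 in the LH. The VMH arrays were the highest, the Arc arrays came next, then those of the DMH, and the LH arrays were the lowest, although LH1 lay close to DMH1. The VMH was 3.35-fold above the DMH and 4.92-fold above the LH (limma, adjusted p = 0.0423 and 0.0105), and the Arc 2.65-fold above the LH (0.0357). The VMH minus DMH call of this probe was lost with the replicate block, without scaling, and with no filter on dim probes. Of the 6 pairs of nuclei, the VMH and DMH had the highest correlation of replicate differences (0.258). With the probe A_51_P513311 the nuclei followed the same order for the VMH and Arc (12950 and 10089, and 6570 and 6580), above the LH (2742 and 3361) and the DMH (1232 and 3570), and the F-test adjusted p was 0.0522. As a ratio, the DMH arrays of this probe differed from each other by more than those of any other nucleus, and the VMH minus DMH log2 difference was 2.45 (95% interval 1.35 to 3.54). For A_55_P2044359, the VMH minus DMH call was lost without any of the Arc, VMH, or DMH arrays (0.101 to 0.228), the Arc minus LH call without any array but LH1 (0.055 to 0.163), and the VMH minus LH call without VMH1 or VMH2 (0.0834 and 0.0619).

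The other RXR genes did not share this pattern in a test. *Rxrb* was bright on all arrays, from 7806 and 8424 in the Arc to 11967 and 15170 in the LH, and its F-test adjusted p was 0.168 (limma). The VMH minus LH log2 difference was -0.10 for *Rxrb*, with a 95% interval of -0.59 to 0.39, and 2.30 for *Rxrg* A_55_P2044359, with an interval of 1.57 to 3.03. *Rxra* was measured on 6 arrays with the probe A_51_P307370, at 33.2 on LH2 and 317 on LH1, and its differences could not be told from the spread between arrays (limma, F-test adjusted p = 0.591). That outcome depended on which arrays were kept, since leaving out 1 array could change it.

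**Figure D3:**
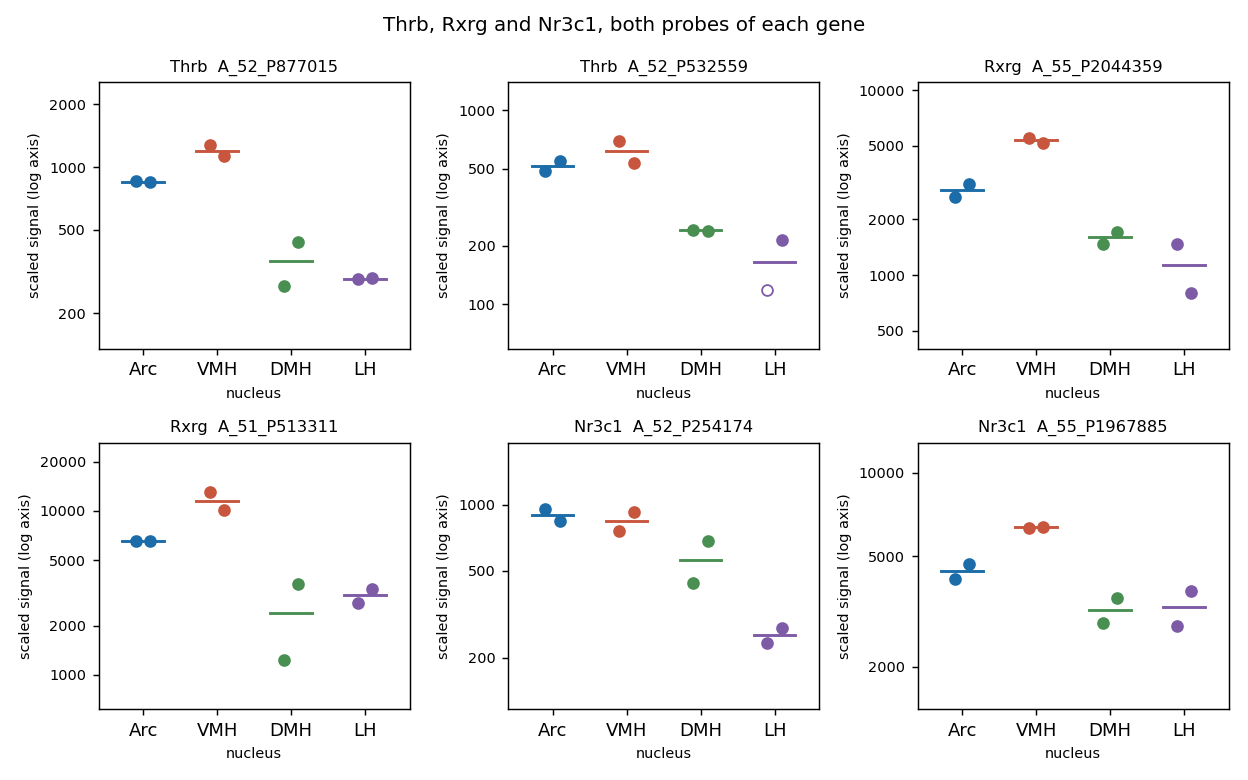
Scaled signal (log axis) of *Thrb*, *Rxrg*, and *Nr3c1* in the 4 nuclei, with both probes of each gene. Points are arrays, open where the probe was not well above background, and lines are means of 2 arrays. For *Thrb* and *Rxrg* both probes put the Arc and VMH above the DMH and LH, and for *Nr3c1* the probes differ in the order of the Arc and VMH and in the place of the DMH.

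*Thra*, the alpha receptor for thyroid hormone, did not have 1 pattern. With the probe A_51_P475995 it was lowest in the Arc, at 2619 and 2924, and reached 5376 and 5436 in the VMH, 3633 and 3625 in the DMH, and 4844 and 5112 in the LH. The VMH was 1.95-fold and the LH 1.80-fold above the Arc (limma, adjusted p = 0.03 and 0.0351), and the F-test adjusted p was 0.0506. The VMH call was kept only without LH1 or LH2 (0.0717 to 0.199 otherwise), and the LH call was lost without any 1 array (0.0534 to 0.21). With the probe A_66_P102879 the signals ranged from 4210 to 7058, both on LH arrays, and the LH arrays thus spanned all others (F-test adjusted p = 0.888). Its Arc minus VMH log2 difference was -0.21 (95% interval -0.89 to 0.46), against -0.97 ± 0.18 (SE) for the first probe. In the RefSeq annotation *Thra* overlaps *Nr1d1*, and the files do not say where in the genes the probes lie.

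Among the retinoic acid receptors, both probes of *Rara* gave more signal in the Arc than in the LH. With A_55_P2095342 the scaled signals were 694 and 593 in the Arc and 261 and 187 in the LH (2.90-fold, limma adjusted p = 0.0421), and with A_55_P2095345 they were 196 and 279 in the Arc and not well above background in the LH (at least 2.29-fold, adjusted p = 0.0226). The first call was lost without an Arc or VMH array or LH2 (0.0691 to 0.221) and the second without Arc1, Arc2, or LH1 (0.0529 to 0.125). The VMH was placed differently by the probes, at 190.5 and 266 in one and at 231 and 134 in the other, so that it lay near the LH in the former and near the Arc in the latter. *Rarg*, another retinoic acid receptor, was 967 and 857 in the Arc, 1323 and 1450 in the VMH, 1020 and 1116 in the DMH, and 1351 and 1430 in the LH. Its largest log2 differences were -0.61, for Arc minus VMH and Arc minus LH, and the F-test did not pass (limma, adjusted p = 0.178). The 2 *Rarb* probes gave F-test adjusted p of 0.291 and 0.881 (limma).

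Genes that supply the ligands of these receptors were listed separately, and 7 of 15 probes tested, of 6 genes, passed the F-test (46.7%, against 8.34% of all probes). The list was chosen with earlier results of these data known, so this share is a description only. *Crabp1*, which binds retinoic acid in the cytoplasm, had scaled signals of 9879 and 11601 in the Arc and 109 to 355 elsewhere, with log2 differences of Arc minus VMH, DMH, and LH of 6.40, 5.69, and 5.03 (limma, adjusted p = 0.000235, 0.000286, and 0.000351). *Dio2*, the deiodinase that makes active thyroid hormone, was 1712 and 1130 in the Arc, 324 and 344 in the VMH, 209 and 171 in the DMH, and 713 and 518 in the LH. All 3 differences of *Dio2* from the Arc passed (limma, adjusted p = 0.00908, 0.00705, and 0.0447). *Slco1c1*, a thyroid hormone carrier, ran the other way with both probes, at 262 and 276 in the Arc and 919 and 693 in the LH for A_55_P2185832 (Arc minus LH log2 difference -1.57, limma adjusted p = 0.0077). *Ttr*, a plasma carrier of thyroid hormone and retinol-binding protein, was higher in the Arc, at 209 and 251, than in the VMH and LH, where no signal exceeded 59.7 (limma, adjusted p = 0.0168 and 0.0319). The median log2 difference of Arc minus LH was 0.20 over the list and 0.05 over all probes tested. The tanycyte markers were higher in the Arc as well, and their part in these values was not tested.

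Among the corticosteroid receptors, 1 of 3 probes passed the F-test, against 8.34% of all probes. *Nr3c1*, the glucocorticoid receptor, had scaled signals of 955 and 840.1 in the Arc, 756 and 924 in the VMH, 439 and 682 in the DMH, and 233 and 275 in the LH with the probe A_52_P254174. The LH arrays were below all others, by 3.54-fold against the Arc and 3.31-fold against the VMH (limma, adjusted p = 0.0097 and 0.0172). The Arc minus LH call was lost without Arc1 or Arc2 (0.0808 and 0.0555) and the VMH minus LH call without VMH1 or VMH2 (0.0838 and 0.1). The probe A_55_P1967885 placed the LH beside the DMH, with 2808 and 3751 in the LH, 2864 and 3524 in the DMH, 4128 and 4700 in the Arc, and 6310 and 6383 in the VMH. Its F-test adjusted p was 0.0859, and its Arc minus LH log2 difference of 0.44 (95% interval -0.11 to 0.99) lay below that of the first probe, 1.82 (1.19 to 2.46). *Nr3c2*, the mineralocorticoid receptor, was 402 and 513 in the Arc, 420 and 459 in the VMH, 401 and 304 in the DMH, and 386 and 365 in the LH. The Arc and VMH arrays lay above those of the DMH and LH, Arc1 only just above DMH1, and the F-test did not pass (limma, adjusted p = 0.573). Its largest difference, Arc minus DMH, was 0.38 with a 95% interval of -0.17 to 0.93.

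The estrogen-related receptors bind no estrogen and with the coactivator *Ppargc1a* drive genes of mitochondrial respiration. Of their 4 probes 2 passed the F-test, for *Esrra* and *Esrrb* (8.34% of all probes did), and all 4 had their highest signals on the LH arrays. Over the 4 probes the median Arc minus LH log2 difference was -2.09, against 0.05 over all probes tested. *Esrra* was 1038 and 1169 in the LH, 279 and 278 in the Arc, 453 and 406 in the VMH, and 409 and 417 in the DMH. The LH arrays were above all others, by 3.95-fold against the Arc, 2.57-fold against the VMH, and 2.67-fold against the DMH (limma, adjusted p = 0.00244, 0.0118, and 0.0318). The Arc call was kept when any 1 array was left out, the VMH call was lost without VMH1 or VMH2 (0.0669 and 0.0759), and the DMH call was kept only without LH1 or LH2, with 0.0756 to 0.156 otherwise.

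*Esrrb* was measured on both LH arrays, at 251 and 269.5, and on Arc2, at 137. On the other 5 arrays it was not well above background, with signals of 18.4 to 48.2. The LH was at least 2.50-fold above the VMH and 2.76-fold above the DMH (limma, adjusted p = 0.0224 and 0.0404), and both calls were lost without any of the VMH or DMH arrays (0.0534 to 0.18). The probe entered the tests through the LH, where alone both arrays measured it, and the DMH call was lost with no filter on dim probes and with the replicate block. The Arc minus LH log2 difference of *Esrrb* was -1.68 ± 0.54 (SE) and did not pass (limma, adjusted p = 0.105). The 2 *Esrrg* probes were 320.4 and 517, and 675 and 600.0, in the LH, above every other array, the highest of which was DMH2 at 169.9 and 280.0. In the Arc neither probe was well above background, and the LH was at least 3.57-fold and 4.86-fold above it (limma, adjusted p = 0.0241 and 0.0335), while the F-tests did not pass (0.0604 and 0.0974). Neither probe passed against the VMH (0.063 and 0.136) or the DMH (0.153 and 0.347). The call of A_55_P2006499 was lost without Arc1, Arc2, or LH2 (0.0609 to 0.129), and that of A_65_P19089 was kept only without Arc1 (0.0601 to 0.0909 otherwise).

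*Ppargc1a* was lowest in the Arc and highest in the LH, and 1 of its probes was the 1 of 22 coactivator probes tested that passed the F-test (4.55%, below the 8.34% of all probes). The median Arc minus LH log2 difference was 0.01 over the coactivators and -0.17 over the corepressors. Its scaled signal with the probe A_51_P279038 was 1266 and 1723 in the Arc, 2357 and 2677 in the VMH, 2788 and 3119 in the DMH, and 3796 and 5945 in the LH. The Arc minus LH log2 difference was -1.69 ± 0.28 (SE) (limma, adjusted p = 0.0152), and it was -1.06 ± 0.25 with the probe A_55_P2011702 (adjusted p = 0.0427). Of 14 corepressor probes tested, 1 passed (7.14%, near the share of all probes), for *Tbl1xr1*, a subunit of the NCoR complex. With that probe, A_55_P1987396, the Arc arrays were at 207 and 191 and the others between 781 and 1157, and the other *Tbl1xr1* probe did not pass (F-test adjusted p = 0.289).

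Markers of glia and vessels were compared between the LH and the rest beside these results. Beside the oligodendrocyte markers given above, 3 of 4 oligodendrocyte precursor markers, 3 of 8 astrocyte markers, and 4 of 8 endothelial markers were higher on both LH arrays than on any other. The summed scaled signal was 14557 and 10327 in the LH against 4967 to 6782 elsewhere for the precursors, 128606 and 138487 against 79523 to 113182 for the astrocytes, and 7642 and 9816 against 4934 to 7040 for the endothelial cells. The neuronal markers summed to 215518 and 204845 in the LH, within the range of the VMH arrays and below 217523 on VMH1, and 5 of 11 neuronal markers were higher on both LH arrays than on any other. For microglia, 4 of 10 markers were higher on both LH arrays, and the sum was 75153 and 60904 in the LH against 72152 to 84521 elsewhere. The share of all probes placed so is not given, and the counts for the LH are a description only. Every member of these lists was well above background on at least 1 array, and their part in the results for the LH, whether a receptor was higher or lower there, was not tested.

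**Figure D4:**
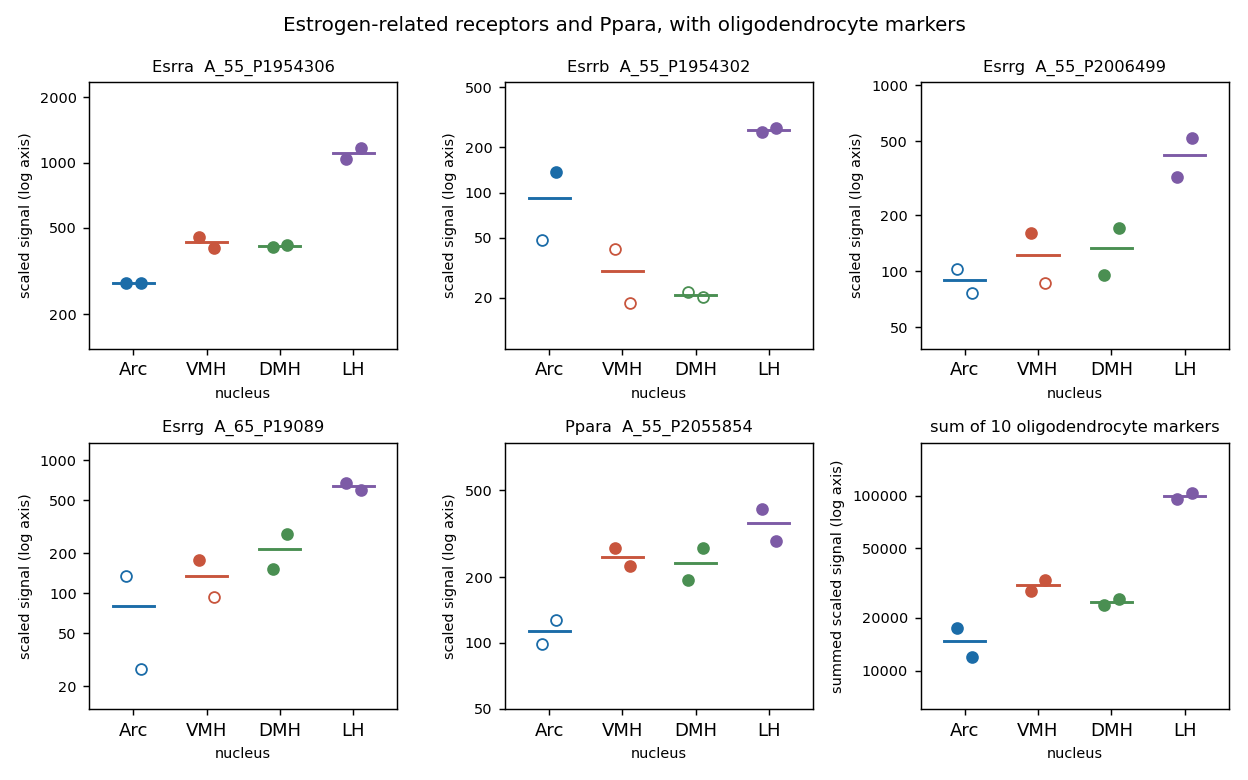
Scaled signal (log axis) of *Esrra*, *Esrrb*, both *Esrrg* probes, and one *Ppara* probe in the 4 nuclei, with the summed scaled signal of 10 oligodendrocyte markers in the last panel. Points are arrays, open where the probe was not well above background, and lines are means of 2 arrays. In each panel both LH arrays lie above all others, and the marker sum is 95438 and 103727 in the LH.

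The sensors of lipids, bile acids, xenobiotics, and vitamin D were the dimmest group, with 8 of 14 probes tested, and 1 of the 8 passed the F-test (12.5%, against 8.34% of all probes). That probe, of *Ppara*, had an F-test adjusted p of 0.0495 (limma) and was past the threshold in 5 of 18 alternative settings. *Ppara*, a fatty acid sensor, had scaled signals of 99.1 and 127 in the Arc, 271 and 224 in the VMH, 193 and 272 in the DMH, and 412 and 294 in the LH with the probe A_55_P2055854. The Arc arrays were the lowest and not well above background, and the LH was at least 3.07-fold above the Arc (limma, adjusted p = 0.0171). That call was lost without Arc1 or Arc2 (0.122 and 0.0652). The probe A_55_P2071601 gave 363 and 169 in the Arc and 209.5 to 368 elsewhere, with an Arc minus LH log2 difference of -0.22 (95% interval -1.17 to 0.72), so the probes of *Ppara* did not give the same result. A *Ppara* probe not tested, A_55_P2071596, was well above background on no array.

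The liver X receptors, sterol sensors, were measured on all arrays. *Nr1h2* was 3431 and 3301 in the LH and 1633 to 2255 elsewhere, and the LH was 1.83-fold above the Arc (limma, adjusted p = 0.0475), while its F-test adjusted p was 0.0871 and the call was lost without any 1 array (0.0761 to 0.212). *Nr1h3* was 304 and 312 in the Arc, 332 and 306 in the VMH, 342 and 376 in the DMH, and 445 and 479 in the LH with the probe A_66_P120249 (F-test adjusted p = 0.227), and the LH arrays were again the highest. With the other *Nr1h3* probe the LH was not the highest nucleus, and the Arc minus LH log2 difference was 0.14 (95% interval -0.45 to 0.74). *Pparg*, the bile acid receptor *Nr1h4*, its relative *Nr1h5*, and the xenobiotic receptor *Nr1i2* were well above background on no array. *Vdr*, the vitamin D receptor, was measured on VMH2 alone, at 373 against 21.0 to 31.6 on the other 7 arrays, so the VMH arrays did not share this signal.

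The clock receptors, which repress (*Nr1d1* and *Nr1d2*) or activate (*Rora* and *Rorb*) the core clock gene *Arntl*, gave F-test adjusted p between 0.0837 and 0.792 for the 4 genes (limma). *Nr1d1* had scaled signals of 1933 and 1609 in the Arc, 1793 and 1970 in the VMH, 2035 and 1660 in the DMH, and 1184 and 1568 in the LH, where both arrays were the lowest. *Nr1d2* was 1955 and 1105 in the Arc and 1046 to 1642 elsewhere, and all nuclei overlapped. The largest log2 differences were 0.46 for *Nr1d1* (VMH minus LH, 95% interval -0.10 to 1.02) and 0.35 for *Nr1d2* (Arc minus VMH, -0.38 to 1.09). *Rora* was 1167 and 1321 in the Arc, 1652 and 1727 in the VMH, 2156 and 1944 in the DMH, and 2514 and 2217 in the LH, with the LH 1.90-fold above the Arc (limma, adjusted p = 0.0318), a call kept only without LH2 (0.0636 to 0.197 otherwise). *Rorb* was highest in the DMH, at 2299 and 2546 against 988 to 1811, with a VMH minus DMH log2 difference of -1.14 (95% interval -1.70 to -0.57) that did not pass the adjusted threshold.

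Of 23 probes tested for genes that these receptors are known to regulate, 2 passed the F-test (8.7%, against 8.34% of all probes), both of *Hopx*, which encodes a small homeodomain protein. The median Arc minus LH log2 difference was -0.27 over this list. Its scaled signal with A_52_P512575 was 43.9 and 69.3 in the VMH, 214 and 260.0 in the Arc, 234 and 240.0 in the DMH, and 489 and 729.6 in the LH. With either probe both VMH arrays were the lowest and not well above background, and the LH was higher than the VMH with both (limma, adjusted p = 0.00292 and 0.00742).

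Each pair of nuclei was compared with the same fit, and the share of receptor probes called is set beside that of all probes. Between the Arc and LH, 20 of 45 receptor probes, from 15 genes, differed, while 9.34% of all probes did. The Arc was higher for 9 of them (3.32% of all probes) and the LH for 11 (6.02%). Of the 20, 7 probes of *Thra*, *Rara*, *Esrrg*, *Rora*, and *Nr1h2* passed in this pair and not in the F-test. This count fell to 8 without Arc1, 7 without Arc2, and 13 without VMH1, VMH2, or LH2.

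Between the Arc and VMH, 7 receptor probes differed (5.93% of all probes), with *Nr5a2* higher in the Arc by both probes (2.4% of all probes) and 5 probes higher in the VMH (3.52%), namely *Nr2f2*, *Nr0b1*, *Thra*, and both *Nr2f1* probes. Between the Arc and DMH, 7 differed (1.26%), with *Nr5a2* and *Nr0b1* higher in the Arc (3 probes, 0.533% of all probes) and *Nr2f1*, *Nr2f2*, and *Nr2e1* higher in the DMH (4 probes, 0.727%). That count was 4 without Arc1 or DMH1. Between the VMH and LH, 7 differed (5.28%), with *Thrb*, *Rxrg*, *Nr3c1*, and *Nr0b1* higher in the VMH (5 probes, 2.24% of all probes) and *Esrra* and *Esrrb* higher in the LH (2 probes, 3.04%). It was 2 without VMH1 and 1 without VMH2.

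Between the VMH and DMH, 3 receptor probes differed (2.04% of all probes), for *Nr0b1*, *Thrb*, and *Rxrg*, and all were higher in the VMH (1.1%). The count was 2 with the replicate block and with no filter on dim probes, where *Rxrg* was not called. It was 1 without Arc1, Arc2, VMH2, or DMH1, 6 without LH1, and 5 without LH2. Between the DMH and LH, 2 differed (0.924%), *Esrra* and *Esrrb*, both higher in the LH (0.664%), and the count lay between 0 without either VMH or DMH array and 4 without LH1. It was 0 with no filter on dim probes and with the replicate number, which is also the row of the array on its slide, as a block, so that in both *Esrra* was not called higher in the LH than in the DMH. The DMH and LH arrays shared high *Hcrt* and *Pmch*, as given above.

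**Figure D5:**
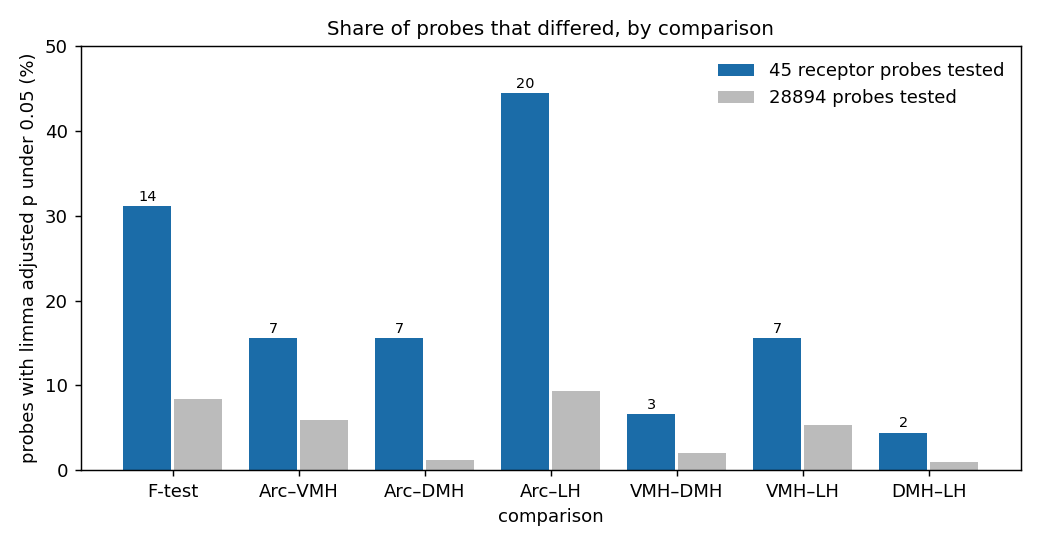
Percent of probes with a limma adjusted p under 0.05 in the F-test and in each pair of nuclei, for the 45 receptor probes tested (blue, with the number of probes above each bar) and for all 28894 probes tested (gray). The Arc and LH pair holds the most receptor probes, 20, and the DMH and LH pair the fewest, 2.

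A receptor that was higher in 1 nucleus than in each of the other 3 was found for the Arc (both probes of *Nr5a2*, 0.339% of all probes), the VMH (*Nr0b1*, 0.54%), and the LH (*Esrra*, 0.485%). Receptors lower in 1 nucleus than in each other were found for the Arc, 3 probes of *Nr2f1* and *Nr2f2*, where 0.457% of all probes were so called. For the DMH, 0.0208% of all probes were higher than in each other nucleus, and the count of receptor probes was 0 by limma after adjustment and 1 at an unadjusted limma p under 0.05. No share of all probes is set beside the unadjusted count. By the one-way ANOVA with Tukey-Kramer tests, adjusted over all probes, the count was 0 for every nucleus in both directions, so that test made none of these calls. The median log2 difference over the 45 receptor probes was between -0.24 (Arc minus VMH) and 0.13 (VMH minus DMH), and over all probes tested it was between 0.01 and 0.05. The ratio of the highest to the lowest nucleus mean was smallest for *Thra* with the probe A_66_P102879, at 1.19.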

How the data were processed

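Gene expression was measured in the Arc, VMH, DMH, and LH with 1-color Agilent arrays, 2 per nucleus, and arrays were assigned to nuclei by their labels. The authors extracted the deposited processed signal, a linear intensity with background subtracted, with Agilent Feature Extraction. The labels give version 11.5.1.1 and the file headers 10.7.3.1. The dye is Cy3 in the labels and Cy5 in the methods, and red channel signals were deposited.

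After outlier spots were dropped and replicate spots averaged, signals were scaled to the 75th percentile of their array and put on the log2 scale. One mean per nucleus was fitted to all 8 arrays with limma 3.58.1 in R 4.3.3 (4 residual and 3.02 prior degrees of freedom), for 28894 probes, each called well above background on the 2 arrays of 1 nucleus or more. Each F-test and each of the 6 pairs was adjusted by Benjamini-Hochberg over these probes, at 0.05. Folds are ratios of geometric means. A fold against a nucleus with both arrays not well above background is a lower bound, set against the higher of the dim signal and the lowest measured signal. The study's criterion, a 10-fold ratio of signal intensities to each other nucleus, was applied without a test. Here the ratios were of arithmetic means of the scaled signals, a choice that the methods do not state. The number of arrays and signal over background limit the precision.

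Of 28390 probes with a RefSeq accession, 26762 (94.3%) were named through GRCm38.p6, and promoter windows came from RefSeq. The receptors and gene lists were chosen with earlier results of these data known. Array values are given for probes past the F-test and for up to 2 probes per receptor group that were measured on all arrays with the smallest range between nuclei. Other receptors past a pair comparison, and at most 4 genes per other list by F-test p, are also given, and a few further receptors were named after seeing their values. Results were recomputed without scaling, with quantile normalization, with normexp (offset 50, on the median signal), from the table of all arrays, with no filter or one on all 8 arrays, with outlier spots retained, with dim signals set to the lowest measured signal, with a replicate block, with trended and robust moderation, by one-way ANOVA with Tukey-Kramer tests, with a fit of each pair alone, at minimums of 5-fold and 2-fold, and without each array in turn. The fit was tested on simulated data.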

Additional observations from a re-analysis of the deposited data

How the results depend on the processing

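Across the alternatives, no receptor probe of the 14 past the F-test had a called difference that changed sign. Without scaling, the VMH and DMH and the DMH and LH each differed in 1 receptor probe, and the median log2 difference of all probes was -0.46 (Arc minus DMH) to 0.33 (DMH minus LH), against 0.01 to 0.05 with scaling. Quantile normalization left 1 probe between the DMH and LH. Normexp gave 8 between the VMH and DMH, 13 between the VMH and LH, and 1 past the 10-fold ratio. With no filter there were 13 between the Arc and LH and 0 between the DMH and LH (limma, 7 at an unadjusted p under 0.05). A filter on all 8 arrays, which removes dim probes such as those of *Nr5a2*, gave 4 (Arc and VMH), 3 (Arc and DMH), 10 (Arc and LH), 5 (VMH and DMH), and 1 (DMH and LH), with 1 probe higher in 1 nucleus than in each other and 0 past the 10-fold ratio. Raising dim signals gave 6 (VMH and DMH), 13 (VMH and LH), and 1 past the 10-fold ratio. Trended and robust moderation gave 8 (VMH and DMH) and 12 (VMH and LH). A fit of each pair alone gave 9 (Arc and LH), 2 (VMH and LH), and 0 (DMH and LH, limma, 8 unadjusted). Minimums of 5-fold and 2-fold gave 3 and 7 probes.

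The one-way ANOVA gave 6 probes in place of 14 (29 unadjusted), and its Tukey-Kramer tests after Benjamini-Hochberg adjustment gave 1 for the Arc and LH (21 unadjusted), and 0 for the Arc and VMH (12), Arc and DMH (11), VMH and DMH (9), VMH and LH (13), and DMH and LH (7), and so 0 probes higher and 0 lower in 1 nucleus than in each other, against 4 and 3 by limma. Shares of all probes at an unadjusted p under 0.05 are at hand for the main limma fit only. They were 24.6% in the F-test and 10.8% to 26.4% in the pairs. For the DMH and LH, 17.8% of receptor probes passed so, near the 15.5% of all probes.

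The correlation of replicate differences between nuclei was between -0.0256 and 0.258, and over 0.1 for VMH and DMH (0.258) and for DMH and LH (0.109) but not for the other 4 pairs, so the numbers were not taken to pair the arrays. All arrays numbered 1 lay in row 1 of the slide and all numbered 2 in row 2. With the replicate block, 13 probes passed the F-test, and the pairs gave 7 (Arc and VMH), 7 (Arc and DMH), 17 (Arc and LH), 2 (VMH and DMH), 7 (VMH and LH), and 0 (DMH and LH, 9 unadjusted). The block removes the DMH minus LH calls of *Esrra* and *Esrrb* and the VMH minus DMH call of *Rxrg*. It keeps the Arc minus LH call of *Esrra* and the VMH minus LH call of *Esrrb* (limma, adjusted p = 0.00592 and 0.0364).

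Leaving out 1 array in turn gave 8 to 15 probes in the F-test, 5 to 10 for the Arc and VMH, 4 to 7 for the Arc and DMH, 7 to 17 for the Arc and LH, 1 to 6 for the VMH and DMH, 1 to 10 for the VMH and LH, 0 to 4 for the DMH and LH, 3 to 6 higher and 1 to 4 lower in 1 nucleus than in each other, and 2 to 3 past the 10-fold ratio. A nucleus left with 1 array is assumed to vary like the others. The F-test was kept without any 1 array for *Nr5a2*, *Nr2f2*, *Nr0b1*, *Esrra*, and *Nr2f1* A_55_P2074281, in 7 of 8 for *Nr2f1* A_66_P114782 (lost without Arc2, adjusted p = 0.0667 by limma) and *Thrb* A_52_P877015 (lost without VMH1, 0.0590), in 6 for *Esrrb*, 4 for *Nr3c1*, 3 for *Rxrg*, 2 for *Nr2e1* and *Thrb* A_52_P532559, and 1 for *Ppara*. The files used here pair probes with accessions and hold no column of gene names, so the assignment by such a column was not run. With 2 arrays per nucleus, a difference that missed the threshold does not show that the nuclei were alike, and a nucleus with a dim probe gives only a bound.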
